A study of Mus musculus with 4 samples.

Results

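The trophectoderm of mouse blastocysts at the time labelled D10 was compared with the trophectoderm at E4, using the 5 barcoded samples of each group out of 20 samples in the whole series. The members were chosen by their labels alone: every column of the deposited count table whose name marks it as trophectoderm (TE), with the remaining 10 columns holding the inner cell mass (ICM) of the same litters. All embryos were wild type and came from B6D2F1 males crossed with ICR females. Both groups share what the protocol says of their handling: the TE was dissected, lysed and reverse transcribed with a barcoded primer, the 5 replicates of a group were mixed, and the mixture was amplified together. Group and amplification pool therefore cannot be told apart. In a deposited list of barcodes the E4 samples carry the word before and the D10 samples the words day 6, and the title likewise sets a state before diapause against one after it, whereas the protocol speaks of diapause embryos throughout. The E4 replicates 1 and 2 came from 2 litters with a zona pellucida, E4 replicates 3 to 5 from 3 litters without, and each D10 replicate from a litter of its own (5 in all), again without. The labels do not say how many embryos made up a sample. The p-values reflect only how far these samples, each from a litter of its own, differ from each other. Differences between litters and technical differences cannot be told apart in that spread.

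The trophectoderm is the outer epithelium of the blastocyst. It seals the embryo with tight junctions, pumps sodium and water inward to fill the blastocoel, takes up nutrients from uterine fluid, and later attaches to the uterus. During diapause the blastocyst stops before attachment, cell division slows, and the embryo can resume development when the mother's hormones change. Known features of the arrested state in mouse are low growth signalling and low biosynthesis.

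The D10 libraries were the deeper ones, with 449524 to 579016 counts against 144276 to 506584 at E4, and with 11092 to 12514 genes detected against 9458 to 11688. The first principal component held 44.7% of the variance of the 10 TE samples and separated E4 from D10. Along the second (10.7%) the E4 samples spread from -35.2 to 31.6 and the D10 samples from -6.62 to 8.15. The share of counts from mitochondrial genes overlapped between the groups (8.03% to 12.8% at E4, 7.86% to 17.1% at D10, the highest in D10 replicate 5). The label was checked against markers. The summed level of 31 trophectoderm markers, in CPM (counts scaled to the library's size), ran from 19477 to 24895 at E4 and from 20693 to 25066 at D10, above every ICM sample (5558 to 13184). The epiblast factor Sox2 had 1 count over the E4 samples and 0 over the D10 samples, Tdgf1 had 2 and 0, and Nanog had 10 and 4. Of the primitive endoderm markers, Gata4 had 5 counts at E4 and 19 at D10, and 14 of the 19 were in D10 replicate 1. Of the 5 at E4, 4 were in replicate 5. Sox17 had 5 and 20 counts, 12 of the 20 in D10 replicate 1, where the summed primitive endoderm level was 2931 CPM against 741 to 1912 in the other D10 samples. The immune marker Ptprc and the stromal markers Col1a1 and Dcn were at 0 in all 10 samples. This allows up to 3 counts in a sample, or 5.24 to 21.5 CPM. The blood marker Hba-a1 had 11 counts in E4 replicate 1 and 1 count each in D10 replicates 1 and 5. Hbb-bs, also of blood, had 3 counts in E4 replicate 1 and 1 count in E4 replicate 4. The summed level of the uterine epithelium and stroma markers was 193 to 311 CPM at E4 and 599 to 768 CPM at D10, so that the groups did not overlap. Much of this sum was Wfdc2 in both groups, and only 3 members of the list could be tested. The part of any carried-over cells in the results below was not tested, and in tissue samples fewer cells of a type and less RNA per cell cannot be told apart.

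Across the protein-coding genes the trophectoderm changed in both directions. Of 6680 protein-coding genes tested, 793 were higher at D10 (11.9%) and 639 were lower (9.57%) at an adjusted p under 0.05, and 5248 did not pass. By at least 2 on the log2 scale, 205 were higher and 98 lower. All 5 D10 samples lay above all 5 E4 samples for 578 of these genes and below them for 411, 14.8% together. The median log2 change over the protein-coding genes was 0.02, so that the changes below are relative to a centre near 0. In libraries thinned to the same total, 402 and 347 genes were called. The counts per list below are to be read beside the shares of 11.9% and 9.57%. A list close to both differs little from the protein-coding genes at large. Some genes are members of several lists, so the counts of such lists are not independent.

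Among the rises with the smallest adjusted p was that of S100a1 (GRCm38 chromosome 3, 90511034 to 90514392, minus strand; ENSMUSG00000044080), a small calcium-binding protein. It stood at 0, 4.15, 14.6, 7.97 and 0 CPM in E4 replicates 1 to 5 and at 1931, 1621, 1372, 1422 and 2721 CPM in D10 replicates 1 to 5. No sample of the groups overlapped, and the log2 change was 7.91 ± 0.43 (adjusted p = 6.76e-13). The connexin Gjb2 (ENSMUSG00000046352, GRCm38 chromosome 14, 57098600 to 57104702, minus strand), a subunit of gap junction channels, had 0 counts in the 5 E4 samples and 5870 over the D10 samples, at 2429, 2192, 3184, 1530.3 and 2734 CPM. Against the limit of 3 counts over the E4 group, Gjb2 was at least 1160-fold higher at D10. Of the better expressed genes (level no lower than the median), the next smallest adjusted p in this direction belonged to Fbxo21, Ckmt1, Pdcd4, Fxyd6, Nos1, Rnf144b, Akap13, Fuca1, Eif2ak3 and Tmem256, with log2 changes from 2.21 to 4.18. Ckmt1, the mitochondrial creatine kinase, went from 135 ± 53.6 to 1112 ± 239.8 CPM (SD, n = 5). Its 3′ end overlaps Strc on the other strand, and use of strand in counting is not stated. Nos1, a nitric oxide synthase, went from 100.3 ± 25.9 to 556 ± 132 CPM. Pdcd4, an inhibitor of translation initiation, stood at 230.2, 153, 87.6, 277 and 372 CPM at E4 and 1051, 1097, 1354, 1211 and 1803 CPM at D10 (log2 2.57 ± 0.29, adjusted p = 5.9e-07).

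Gsta4 (ENSMUSG00000032348, GRCm38 chromosome 9, 78182774 to 78209349, plus strand), a glutathione transferase that acts on products of lipid peroxidation, fell from 478, 577, 521, 418 and 451 CPM in the E4 samples to 74.8, 122, 56.2, 73.4 and 95.6 CPM in the D10 samples. The lowest E4 sample was above the highest D10 sample, and the log2 change was -2.53 ± 0.22 (adjusted p = 5.8e-09). Mars1, Serf2, Erh, Hs3st3b1, Eif2s2, Snrpe, Cbs, Pla2g10, Khdc3, Sod1 and Hmgb2 followed, with log2 changes from -3.95 to -1.55. None of these 11 genes had overlapping groups, where 14.8% of all protein-coding genes tested had none. They were chosen by their p, which favours groups that do not overlap. Eif2s2, a subunit of the translation initiation factor that brings the first tRNA to the ribosome, went from 3785 ± 677 to 1119 ± 207 CPM. Cbs, the enzyme that makes cystathionine from homocysteine, went from 189.6 ± 38.2 to 33.2 ± 16.2 CPM. The 3′ end of Mars1 overlaps Ddit3 on the other strand, and that of Serf2 overlaps Hypk on the same strand, so their levels are uncertain. Ppp1cc (ENSMUSG00000004455, GRCm38 chromosome 5, 122158278 to 122175273, plus strand), a catalytic subunit of protein phosphatase, had 135 counts over the E4 samples and 3 over the D10 samples, an E4 to D10 ratio of pooled counts, scaled by the group totals, of 75.9 (95% Clopper-Pearson interval 25.4 to 373). It was present at 97.8, 108, 80.3, 83.7 and 122 CPM in every E4 sample and at 1.83, 0, 2.01, 1.75 and 0 CPM at D10.

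**Figure D1:**
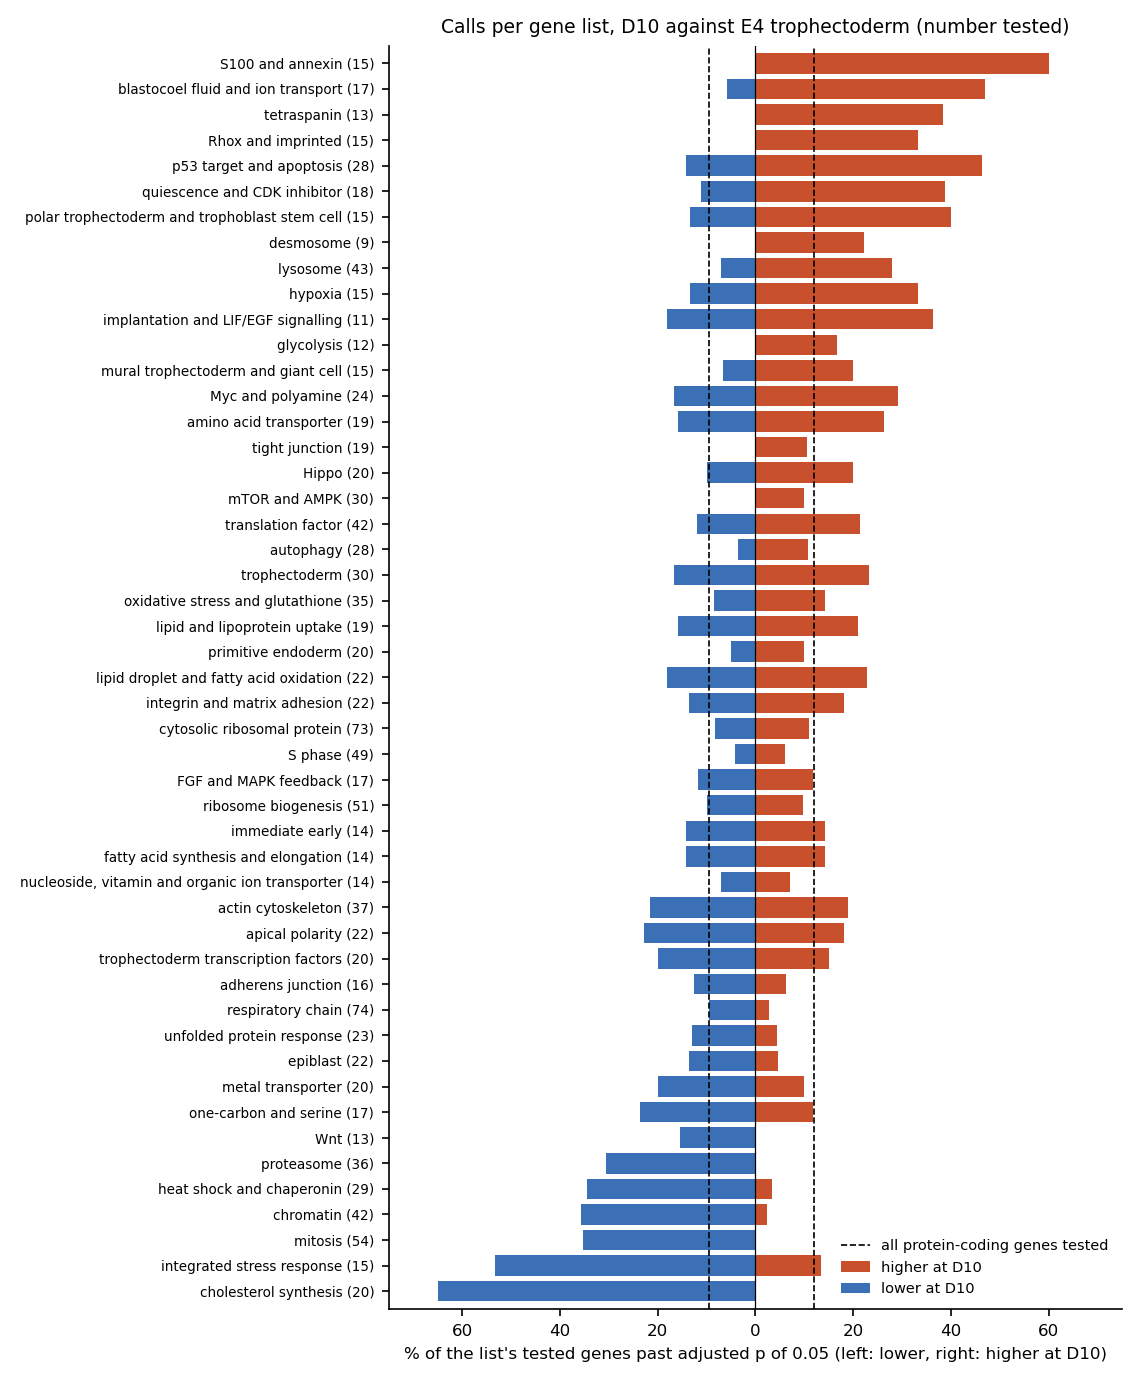
Share of each list's tested genes that passed an adjusted p of 0.05, with genes lower at D10 as blue bars to the left and genes higher at D10 as red bars to the right; the number tested is in parentheses, lists with under 9 tested genes are not drawn, and the dashed lines mark the shares over all protein-coding genes tested, 9.57% and 11.9%. Cholesterol synthesis stood at one end, with 13 of 20 genes lower, and S100 proteins and annexins at the other, with 9 of 15 higher.

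Transcription factors that specify the trophectoderm moved in both directions. In a list of 25 such factors, 20 were tested, 3 were higher and 4 lower. Cdx2 (ENSMUSG00000029646, GRCm38 chromosome 5, 147300805 to 147307270, minus strand), the homeobox factor that sets trophectoderm fate, stood at 28.8, 58.1, 60.9, 25.9 and 42.9 CPM at E4 and 94.9, 97.9, 70.2, 110.1 and 98.3 CPM at D10. All D10 samples were above all E4 samples, with a log2 change of 1.11 ± 0.28 (adjusted p = 0.00491). Eomes (ENSMUSG00000032446, GRCm38 chromosome 9, 118478212 to 118486132, plus strand), a T-box factor of the polar trophectoderm and of trophoblast stem cells, went the other way, from 1088, 941, 806, 1377 and 1016 to 506, 487, 353, 365 and 319.6 CPM. The groups did not overlap (log2 -1.36 ± 0.23, adjusted p = 9.56e-05); Gm33460 on the other strand overlaps its 3′ end. The paralogs Tfap2a and Tfap2c moved oppositely. Tfap2a fell from 501 ± 53.3 to 144 ± 43.7 CPM (log2 -1.79 ± 0.25, adjusted p = 1.34e-05). Tfap2c rose from 177 ± 25.9 to 297 ± 41.3 CPM (log2 0.75 ± 0.22, adjusted p = 0.0151) but missed the threshold without E4 replicate 4 (adjusted p = 0.0531). Tead1 rose, and Klf6 and Plac1, a placental membrane protein in that list, fell. Gata3 (ENSMUSG00000015619, GRCm38 chromosome 2, 9857078 to 9890034, minus strand) was at 1573 ± 371 and 2063 ± 231 CPM and did not pass (log2 0.39 ± 0.20, adjusted p = 0.178). Tead4, which acts upstream of Cdx2, and Elf5, a factor of trophoblast stem cells, did not pass either (log2 -0.40 ± 0.25 and -0.83 ± 0.36, adjusted p = 0.27 and 0.0986). At E4, Elf5 was at 251 CPM in replicate 3 and at 53.9 to 110 CPM in the other samples.

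Markers of the polar and mural regions were called in both directions. Of 15 tested markers of the polar region and its stem cells, 6 were higher and 2 lower; of 15 mural and giant cell markers, 3 were higher and 1 lower, with 1 higher without E4 replicate 5. The polar list rose in Rhox6 and Rhox9, X-linked homeobox genes that are close copies of each other so that the split of counts between them is uncertain, and in Cdx2, Ddah1, Tfap2c and Ly6a, while Eomes and Spry2, an antagonist of FGF signalling, fell. In the mural list Nfkbia, Ctsl and Krt7 rose. Its member Basp1 fell (log2 -1.60 ± 0.34, adjusted p = 0.00137) with overlapping groups: it was at 3045 CPM in E4 replicate 3 and at 469 to 1165 CPM in the other E4 samples, against 365 to 475 CPM at D10.

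Keratin filaments, the intermediate filaments of simple epithelia, had 2 of 4 tested genes higher and 0 lower. Krt8 stood at 293, 559.9, 253, 412 and 336 CPM at E4 and 482, 318, 281, 582 and 300.5 CPM at D10, with overlapping groups (log2 0.08 ± 0.33, adjusted p = 0.895). The sign of this difference changed when E4 replicate 1 or 3 or D10 replicate 1 or 4 was left out. Its partner Krt18 was at 2210.4 ± 525 and 3094 ± 825 CPM and did not pass (log2 0.49 ± 0.25, adjusted p = 0.169). Krt19 was at 11.5, 0, 7.30, 5.98 and 0 CPM at E4 and at 63.9, 55.1, 48.1, 115 and 16.4 CPM at D10, where each sample was above every E4 sample (log2 3.42 ± 0.69, adjusted p = 0.000775). Krt7 rose from 148 ± 131 to 439.7 ± 185 CPM (log2 1.49 ± 0.46, adjusted p = 0.0211) but did not pass without E4 replicate 1, 2 or 5 or D10 replicate 3, or without the E4 litters with a zona, where the adjusted p reached 0.188. The keratin count of 2 of 4 tested genes fell as far as 0 with 1 sample left out, moving without any of E4 replicates 1, 2 and 5 or D10 replicates 1 to 4. Krt19 was too low to be tested without any of D10 replicates 1 to 4.

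**Figure D2:**
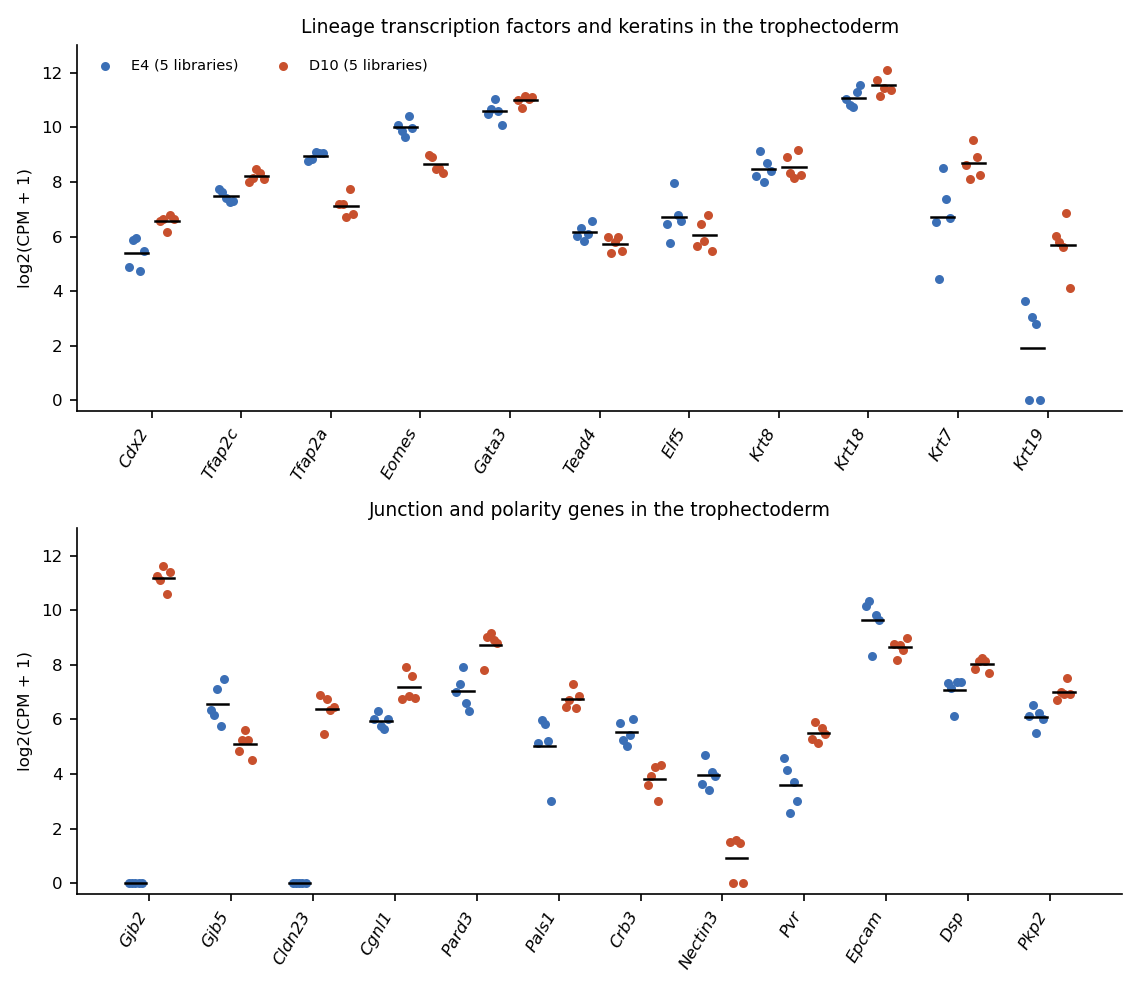
Level of each gene in the 5 E4 samples (blue) and the 5 D10 samples (red) as log2(CPM + 1), with the mean of each group as a black line; 0 on the axis is a sample without counts. Gjb2 and Cldn23 were at 0 in every E4 sample and were counted in every D10 sample, whereas Gata3, Krt8 and Krt18 overlapped between the groups.

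The tight junction list, the seal of the epithelium, held few changes: of 19 tested genes 2 were higher and 0 lower, a share of the list close to the background of 11.9%. The other 17 did not pass, and 1 was lower without E4 replicate 3 or 4. Cldn23 (ENSMUSG00000055976, GRCm38 chromosome 8, 35824712 to 35826559, minus strand), a claudin, had 0 counts at E4 and 216 at D10, at 117, 42.8, 106, 80.4 and 87.4 CPM, at least 42.7-fold higher. Cgnl1, which links junctions to the cytoskeleton, went from 61.97 ± 11.3 to 152 ± 60.3 CPM (log2 1.33 ± 0.32, adjusted p = 0.00409). Over the claudin family by symbol, 1 of 5 tested genes was higher and 4 did not pass. Desmosomes, which tie keratin filaments of neighbouring cells together, showed 2 of 9 tested genes higher and 0 lower. Desmoplakin, Dsp, was at 161, 141, 68.2, 163 and 165 CPM at E4 and 232, 281, 303, 281 and 205 CPM at D10, and the plakophilin Pkp2 went from 68.4 ± 17.1 to 131 ± 30.4 CPM (log2 0.93 ± 0.24 and 0.95 ± 0.25, adjusted p = 0.00644 and 0.00813).

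Among 16 tested adherens junction genes 1 was higher and 2 lower, beside 11.9% and 9.57% of all protein-coding genes tested. Nectin3, which pairs cells across the junction, had 22 counts at E4 and 3 at D10, an E4 to D10 ratio of 12.4 (95% Clopper-Pearson interval 3.72 to 64.6). Pvr, a nectin-like receptor, rose from 12.7 ± 7.32 to 45.2 ± 9.95 CPM (log2 1.90 ± 0.38, adjusted p = 0.000731). The count of higher genes was 2 or 3 when any sample but E4 replicate 4 was left out, and 3 without the E4 litters with a zona. Epcam, an adhesion protein of epithelia, fell from 890.3 ± 374 to 406 ± 81.7 CPM (log2 -1.13 ± 0.27, adjusted p = 0.00389). Its groups overlapped, with 321 CPM in E4 replicate 3, and the call was lost without the E4 litters with a zona (adjusted p = 0.0933).

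Of 4 tested gap junction genes 1 was higher and 2 lower. Beside the rise of Gjb2, Gjb5 (GRCm38 chromosome 4, 127354809 to 127358181, minus strand) fell from 80.6, 70.5, 139, 53.8 and 179 to 27.4, 36.7, 48.1, 36.7 and 21.9 CPM (log2 -1.54 ± 0.29, adjusted p = 0.000424), and the groups did not overlap. The count of lower genes was 1 without E4 replicate 2, in thinned libraries and without the E4 litters with a zona.

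Apical polarity genes, which set the free surface of the epithelium apart from the sides, were called in both directions. Of 22 tested 4 were higher and 5 lower, beside 11.9% and 9.57% of all protein-coding genes tested. The Par complex scaffold Pard3 rose from 139 ± 63.1 to 448 ± 133 CPM (log2 1.65 ± 0.26, adjusted p = 4.71e-05), although its lowest D10 sample, 226 CPM in replicate 1, was below its highest E4 sample, 239 CPM in replicate 3. Pals1 of the Crumbs complex rose (log2 1.37 ± 0.30, adjusted p = 0.00145), and Crb3, the apical membrane protein of that complex, fell from 57.5, 37.3, 31.6, 41.8 and 64.4 to 10.95, 14.3, 18.1, 6.99 and 19.1 CPM (log2 -1.69 ± 0.40, adjusted p = 0.00328). Dennd1c overlaps the 3′ end of Crb3 on the other strand. Ezr and Dlg1 were the other members that rose, and Rhoa, Pard6b, Prkcz and Slc9a3r1 the others that fell. The count of lower genes was 2 to 4 with any 1 sample left out, and moved by over 1.5 times without E4 replicate 3 or D10 replicate 1, 2 or 4.

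Matrix adhesion and cytoskeleton genes also split, beside 11.9% higher and 9.57% lower of all protein-coding genes tested. Of 22 tested integrin and matrix adhesion genes 4 were higher and 3 lower. Itgav, an integrin subunit for vitronectin and fibronectin, rose from 24.01 ± 14.1 to 94.9 ± 34.9 CPM (log2 1.81 ± 0.34, adjusted p = 0.000389), and so did parvin Parva and agrin, Agrn, a heparan sulfate proteoglycan (log2 2.18 ± 0.42 and 1.39 ± 0.32, adjusted p = 0.000467 and 0.00232). Lgals3 was the fourth, and Dag1, Zyx and Sdc4 fell. Of 37 actin cytoskeleton genes that could be tested, 7 were higher and 8 lower, and the 8 became 5 without E4 replicate 3. Pdlim1, an adaptor on actin bundles, rose from 156 ± 68.1 to 573 ± 95.1 CPM (log2 1.89 ± 0.29, adjusted p = 3.14e-05), with Arpc2, Tmsb4x, Tpm1, Ezr, Iqgap1 and Flna. Actg1, Myh10, Actn4, Arpc5, Vasp, Arpc3, Actb and Cnn3 fell.

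Genes of ion and fluid transport into the blastocoel were called higher more often than lower. Of 17 tested genes 8 were higher and 1 lower, with a median log2 change of 1.16 against 0.02 over all protein-coding genes tested. Scnn1a (ENSMUSG00000030340, GRCm38 chromosome 6, 125320659 to 125344943, plus strand), the pore subunit of the epithelial sodium channel, was at 0, 4.15, 0, 0 and 21.5 CPM at E4 and at 104, 65.2, 82.2, 128 and 107 CPM at D10. Every D10 sample was above every E4 sample (log2 4.93 ± 0.66, adjusted p = 6.3e-06). Fxyd6 (ENSMUSG00000066705, GRCm38 chromosome 9, 45370185 to 45396159, plus strand), a regulator of the sodium pump, was at 11.5, 8.30, 2.43, 21.9 and 35.8 CPM at E4 and 203, 212, 351, 164 and 412 CPM at D10 (log2 4.18 ± 0.48, adjusted p = 7.61e-07). Car4, a carbonic anhydrase on the cell surface, rose from 48.4 ± 15.5 to 306 ± 147 CPM (log2 2.61 ± 0.48, adjusted p = 0.000289). The others that rose were Scnn1b, a second subunit of the sodium channel, Fxyd4, the sodium pump subunit Atp1b1, the aquaporin Aqp9 and the potassium channel Kcnk5, by 1.16 to 1.99 on the log2 scale. Slc4a2, an exchanger of chloride for bicarbonate, fell (log2 -1.25). The Slc4a2 call was lost without E4 replicate 1, 4 or 5 or D10 replicate 1, 2 or 4. With 1 sample left out the count of higher genes was 6 to 9, and in thinned libraries it was 4. By gene symbol, 11 of 28 tested genes matched as ion channels were higher and 3 lower. The symbols also take in genes that are not known channels, such as Scnm1 and Tmem160 among the higher and Tmem165 among the lower. This count is therefore not one of channels alone. Of 31 tested P-type and V-type ATPase genes 6 were higher and 1 lower.

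Of 129 tested genes with a solute carrier symbol 24 were higher and 18 lower, where 11.9% and 9.57% of all protein-coding genes were. The symbols take in some genes that are not carriers, such as Slc9a3r2 among the higher and Slc9a3r1 among the lower. Among 19 tested amino acid transporters 5 were higher and 3 lower. Slc1a5 (ENSMUSG00000001918, GRCm38 chromosome 7, 16781340 to 16798274, plus strand), which carries glutamine and other neutral amino acids, was at 5.75, 8.30, 7.30, 9.96 and 0 CPM at E4 and 193, 97.9, 195, 29.7 and 352 CPM at D10. The lowest D10 sample, replicate 4, was still above the highest E4 sample (log2 4.48 ± 0.63, adjusted p = 1.22e-05). Slc7a3, a carrier of arginine and lysine, rose from 23.02, 12.4, 92.5, 53.8 and 28.6 to 305, 422, 439, 126 and 249 CPM (log2 2.70 ± 0.47, adjusted p = 0.000168). Slc7a8, Slc43a2 and Slc3a2 rose too; Slc3a2 is the heavy chain that brings several such carriers to the membrane and went from 531 ± 168 to 1232 ± 249 CPM (log2 1.21 ± 0.26, adjusted p = 0.0013). Slc38a7, a glutamine carrier of the lysosome, fell from 76.8 ± 17.6 to 22.02 ± 13.9 CPM (log2 -1.77 ± 0.36, adjusted p = 0.000916), as did Slc1a1 and Slc7a6. The count of higher genes was also 5 with any 1 sample left out.

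In the small list of glucose and monocarboxylate transporters 2 of 4 tested genes were higher. The glucose transporter Slc2a1 rose from 59.4 ± 18.7 to 109.9 ± 31.2 CPM (log2 0.88 ± 0.28, adjusted p = 0.0253) and the chaperone of monocarboxylate carriers Bsg from 331 ± 89.1 to 585 ± 52.4 CPM (log2 0.81 ± 0.19, adjusted p = 0.0026). Both calls were lost without the E4 litters with a zona, and that of Slc2a1 also without E4 replicate 1 or 3 or D10 replicate 1 (adjusted p up to 0.131). Of 20 tested metal transport and storage genes 2 were higher and 4 lower. Cnnm4, which exports magnesium, fell from 86.3, 58.1, 4.87, 79.7 and 64.4 to 5.48, 0, 0, 8.73 and 16.4 CPM (log2 -3.23 ± 0.67, adjusted p = 0.00103), with overlap through E4 replicate 3. The iron carrier Slc11a2 and the zinc importer Slc39a1 fell (log2 -1.13 ± 0.24 and -1.11 ± 0.25, adjusted p = 0.0013 and 0.00194), with the iron exporter Slc40a1, and Slc25a37 and Slc39a4 rose. The 2 higher genes became 1 without E4 replicate 1 or 4 or D10 replicate 3. Of 14 tested carriers of nucleosides, vitamins and organic ions, Slc29a1, a nucleoside carrier, was higher (log2 1.00 ± 0.35, adjusted p = 0.0438), and Abcc4, which exports cyclic nucleotides, lower (log2 -1.22 ± 0.35, adjusted p = 0.0129). The call of Slc29a1 was lost under 11 of 21 alternatives, among them 8 of the 10 that leave out 1 sample (all but E4 replicate 3 and D10 replicate 2), and that of Abcc4 in thinned libraries and without E4 replicate 4.

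**Figure D3:**
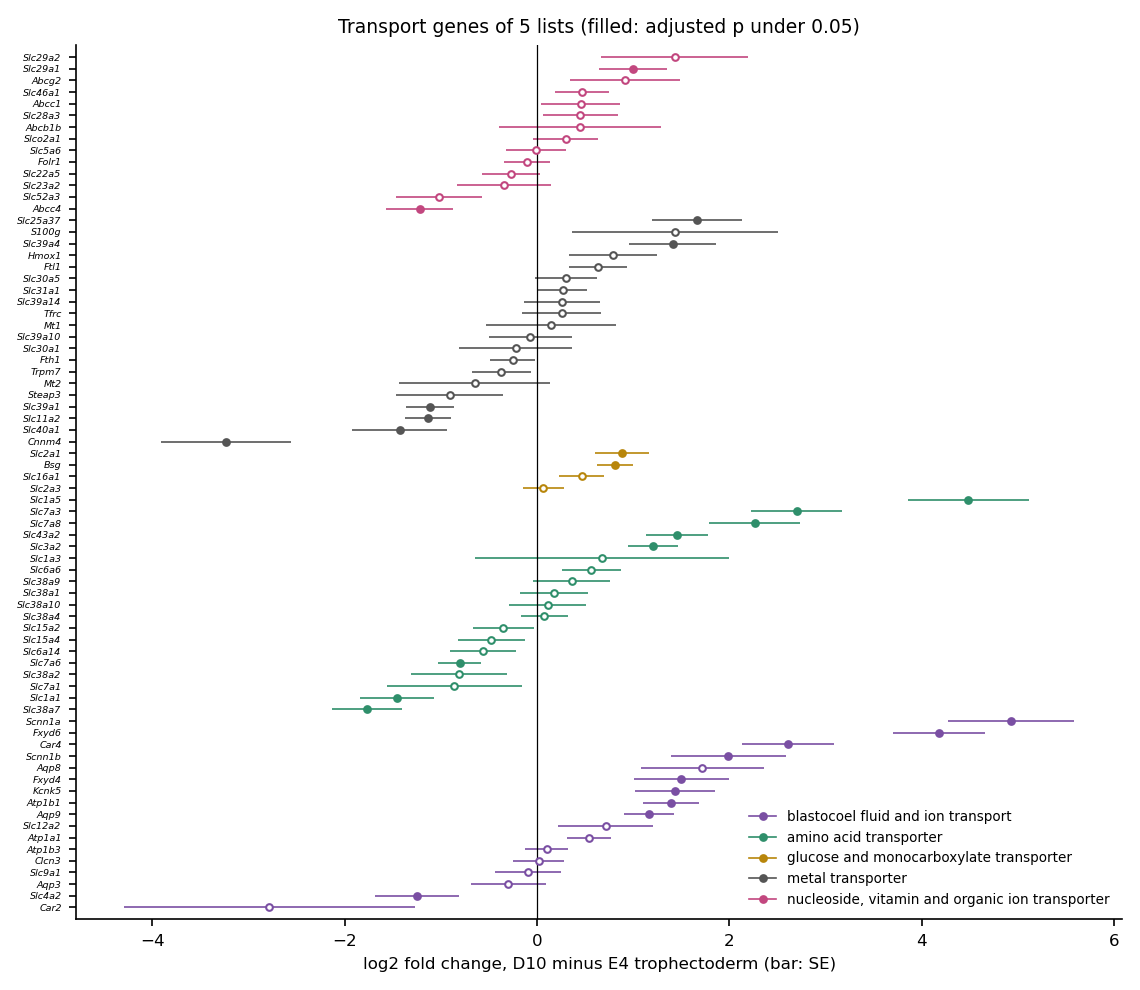
Log2 change of every tested gene in 5 transport lists, D10 minus E4 trophectoderm, as a point with its standard error; filled points passed an adjusted p of 0.05 and open points did not. Scnn1a (log2 4.93), Slc1a5 (log2 4.48) and Fxyd6 (log2 4.18) lie farthest to the right, and Cnnm4 (log2 -3.23) farthest to the left among filled points.

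The cholesterol synthesis list had the largest share of lower genes among the lists drawn. Of 20 tested genes 13 were lower and 0 higher, with a median log2 change of -1.26; among the lower ones were Sqle, Srebf2, Pmvk, Cyp51, Acat2, Nsdhl, Msmo1, Lss, Fdft1, Hmgcs1 and Sc5d. Sqle (ENSMUSG00000022351, GRCm38 chromosome 15, 59315077 to 59331192, plus strand), the squalene epoxidase, was at 80.6, 58.1, 166, 75.7 and 107 CPM at E4 and 21.9, 18.4, 14.04, 8.73 and 5.46 CPM at D10, without overlap (log2 -2.79 ± 0.40, adjusted p = 1.37e-05). Srebf2, the transcription factor that controls the pathway, had 60 counts at E4 and 13 at D10 (log2 -2.97 ± 0.49, adjusted p = 9.57e-05). Insig1, Ebp, Mvd, Mvk, Dhcr7, Stard4 and Hsd17b7 did not pass, with log2 changes from -0.79 to 0.02. The count of lower genes was 11 to 13 with 1 sample left out and 7 in thinned libraries.

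This change differed from that in the inner cell mass of the same litters. In a test of the difference between the D10 minus E4 changes of the tissues, 346 of 6943 genes passed (4.98%), and in the cholesterol list 15 of 20 passed, with the change in the trophectoderm below that in the ICM in each. For Sqle the ICM change was 0.81 ± 0.33 and the difference -3.60 ± 0.52 on the log2 scale (adjusted p = 6.5e-05). For Srebf2 the ICM change was 1.21 ± 0.34 and the difference -4.17 ± 0.60 (adjusted p = 6.5e-05). Mvd and Insig1, which did not pass in the trophectoderm, rose in the ICM (log2 2.39 ± 0.42 and 2.09 ± 0.49, adjusted p = 0.000204 and 0.00292) and passed the test of the difference (adjusted p = 0.0045 and 0.00979). With litter as a block 14 of the 20 passed, Pmvk being the one lost.

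**Figure D4:**
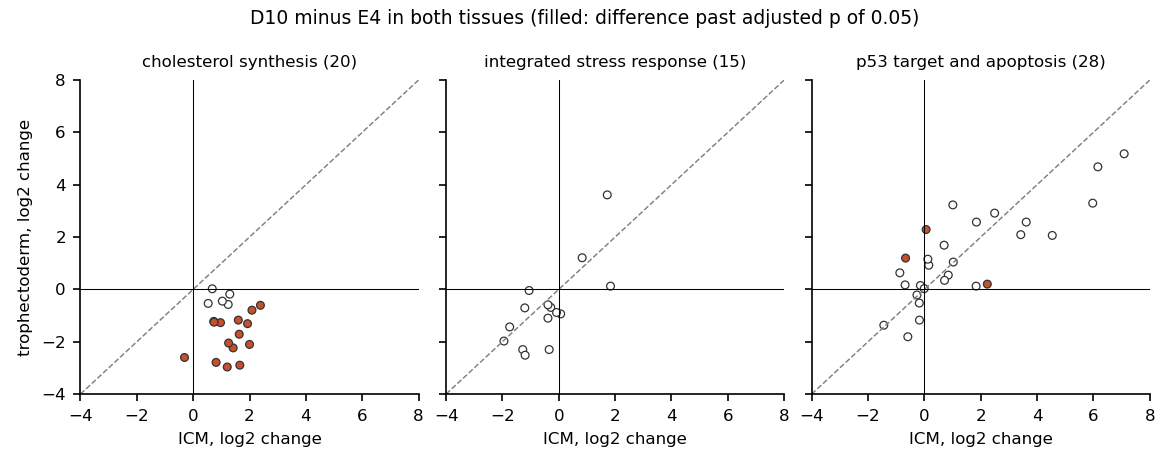
Log2 change from E4 to D10 in the inner cell mass (horizontal) and the trophectoderm (vertical) for each tested gene of 3 lists; the dashed line marks equal changes, and filled points passed an adjusted p of 0.05 for the difference of the changes. In the cholesterol list 15 of 20 genes are filled and lie below the line, whereas 0 of 15 integrated stress response genes and 3 of 28 p53 target and apoptosis genes are filled.

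Promoter sequence was looked at beside these calls because Srebf2, the transcription factor that controls the pathway, is in the list. RefSeq windows of 300 bases (250 before to 50 after the first listed start, GRCm38.p6) were at hand for 5403 of the 6680 genes, and each motif was searched on both strands. The sterol regulatory motif TCACNCCAC was in 0.999% of these windows, in 2.17% of those of lower genes (11 of 506) and in 0.635% of those of higher genes (4 of 630). Of the 13 lower cholesterol genes, 9 had a window: 1 held this motif and 8 held CCAAT, which was in 39.2% of all windows. The window of Hmgcs1, the synthase at the start of the pathway, held the sterol motif, shown in capitals with the bases on either side as the sequence that carries this match (chr13:119690184-119690252, plus strand, 5′ to 3′).
Hmgcs1: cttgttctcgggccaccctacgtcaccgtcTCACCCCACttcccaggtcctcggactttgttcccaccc
Hmgcs1 went from 111 ± 15.6 to 48.2 ± 22.9 CPM in the trophectoderm (log2 -1.17 ± 0.36, adjusted p = 0.0202). A match is a description of the letters and not evidence of binding.

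Lipid uptake and use changed gene by gene. Lrp2 (ENSMUSG00000027070, GRCm38 chromosome 2, 69424340 to 69586065, minus strand), megalin, a large receptor that takes up lipoproteins and carrier proteins, was at 506, 481, 17.04, 167 and 329 CPM at E4 and 10.95, 0, 4.01, 1.75 and 2.73 CPM at D10. E4 replicate 3 was low, and still above the highest D10 sample (log2 -6.06 ± 0.86, adjusted p = 1.28e-05). Its adaptor Dab2 moved the other way, from 1088, 776, 1108, 978 and 808 to 2586, 2687, 3009, 2465 and 2229 CPM (log2 1.45 ± 0.24, adjusted p = 0.000112), and so did Acsl1, which activates fatty acids (log2 2.51 ± 0.40, adjusted p = 5.46e-05). Of 19 uptake genes that could be tested 4 were higher and 3 lower, with Apoe and Npc2 among the higher and Acsl3 among the lower. For fatty acid synthesis and elongation 2 of 14 tested genes were higher, Elovl7 and Tecr, and 2 lower, Elovl6 and Elovl1. Over all protein-coding genes tested 11.9% were higher and 9.57% lower. The lower count of this list was 1 without E4 replicate 3 or 5 or D10 replicate 2 or 5. Elovl6 went from 234 ± 121 to 43.5 ± 19.2 CPM (log2 -2.36 ± 0.35, adjusted p = 2.86e-05). For lipid droplets and fatty acid oxidation 5 of 22 tested genes were higher and 4 lower. Pnpla2, the lipase that opens triglyceride stores, rose from 34.5, 37.3, 48.7, 59.8 and 57.2 to 151, 167, 351, 154 and 172 CPM (log2 2.03 ± 0.28, adjusted p = 9.49e-06), with its activator Abhd5 and with Decr1, Acadm and Hadhb of fatty acid oxidation. Cpt1a, which admits fatty acids to mitochondria, fell (log2 -2.97), as did Hilpda and Etfb.

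Of 12 tested glycolysis genes 2 were higher, Ldha, lactate dehydrogenase, from 24.3 ± 17.2 to 106 ± 15.7 CPM (log2 2.03 ± 0.52, adjusted p = 0.00623), and Slc2a1. Without E4 replicate 1 the count was 1. Both genes are counted again in the hypoxia list, Slc2a1 also among the transporters and Ldha also in the Myc list. These counts are therefore not independent, and the Slc2a1 call was lost under the alternatives given above. Of 74 tested respiratory chain genes 2 were higher and 7 lower, and 65 did not pass. The higher count ran from 1 to 4 and moved by over 1.5 times when any sample but E4 replicate 1 or D10 replicate 1 was left out, and the 7 lower genes became 3 or 4 without E4 replicate 3 or D10 replicate 1 or 4. In the one-carbon and serine list Shmt1 and Amt were higher and Psat1, Mthfd2, Gldc and Tyms lower, of 17 tested. Shmt1 (log2 1.42 ± 0.24, adjusted p = 0.000143) shares its 3′ end with Smcr8 on the other strand. The 4 lower genes became 2 without E4 replicate 2 or 3, and the 2 higher genes became 1 without E4 replicate 1, 3 or 5 or D10 replicate 3 or 5.

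Part of the chaperones of the heat shock response fell. Of 29 tested heat shock and chaperonin genes 10 were lower and 1, Cct4, was higher, with a median log2 change of -0.31. Hsp90aa1 (ENSMUSG00000021270, GRCm38 chromosome 12, 110690605 to 110702728, minus strand), the inducible cytosolic HSP90, was at 4350.2, 4774, 3513, 3616 and 2533 CPM at E4 and 1077, 1278, 857, 1750.4 and 997 CPM at D10. Each D10 sample was below each E4 sample (log2 -1.66 ± 0.22, adjusted p = 6.33e-06). Hsph1, a nucleotide exchange factor of HSP70, went from 231 ± 75.3 to 83.9 ± 41.5 CPM, and the co-chaperone Dnaja1 from 547 ± 203 to 236 ± 66.5 CPM (log2 -1.46 ± 0.27 and -1.21 ± 0.24, adjusted p = 0.000352 and 0.000734). Smu1 overlaps the 3′ end of Dnaja1 on the other strand. The others that fell were Hsp90ab1, Dnajb1, Ahsa1, Stip1, Hspa9, Cct7 and Fkbp4. With any 1 sample left out 8 to 11 genes were lower. The heat shock motif GAANNTTC was in 5.13% of all promoter windows, 4.74% of those of lower genes and 4.29% of those of higher genes. Of the 7 lower chaperone genes with a window, 3 held it: Dnaja1, Fkbp4 and Hsph1. The matches before the start are shown in capitals, to place the letters beside the genes that fell (Dnaja1, chr4:40722314-40722381, plus strand; Fkbp4, chr6:128438770-128438837, minus strand; both 5′ to 3′ on the gene's strand).
Dnaja1: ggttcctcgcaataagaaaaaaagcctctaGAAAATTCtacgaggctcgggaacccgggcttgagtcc
Fkbp4: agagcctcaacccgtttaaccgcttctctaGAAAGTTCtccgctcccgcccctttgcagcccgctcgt

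Proteasome calls were all in the lower direction, with 11 of 36 tested genes lower and 0 higher and a median log2 change of -0.46. Psmb3, a subunit of the core particle, went from 311, 527, 441, 331 and 579.5 to 139, 133, 152, 197 and 188 CPM without overlap (log2 -1.43 ± 0.25, adjusted p = 0.000158). The others were Psma1, Psma5, Psma6, Psmb2 and Psmb5 of the core and Psmc5, Psmc6, Psmd1, Psmd3 and Psmd12 of the regulatory particle, by -1.21 to -0.68 on the log2 scale. The remaining 25 did not pass.

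The endoplasmic reticulum and integrated stress responses held genes that moved against each other. Eif2ak3 (ENSMUSG00000031668, GRCm38 chromosome 6, 70844515 to 70905245, plus strand), PERK, the kinase that senses misfolded protein and phosphorylates eIF2, rose from 34.5, 24.9, 63.3, 49.8 and 107 to 475, 497, 1027, 201 and 639 CPM. The groups did not overlap (log2 3.39 ± 0.42, adjusted p = 2.09e-06). The chaperone Hsp90b1 and Selenos of the degradation pathway fell (log2 -1.14 ± 0.30 and -1.06 ± 0.26, adjusted p = 0.00765 and 0.00446), with P4hb, and 19 of 23 tested genes of this list did not pass. The 3 lower genes became 5 without E4 replicate 2, and Selenos did not pass in thinned libraries. In the integrated stress response list 8 of 15 tested genes were lower and 2 higher, with a median log2 change of -0.88. The lower ones were the transcription factors Atf4 and Atf5, the enzymes Psat1 and Mthfd2, the translation repressor Eif4ebp1 and the tRNA synthetases Cars, Wars and Aars. Atf4 fell from 391 ± 176 to 185 ± 52.5 CPM (log2 -1.10 ± 0.28, adjusted p = 0.00606), and Cars, the cysteine enzyme, from 23.02, 37.3, 63.3, 23.9 and 21.5 to 9.13, 8.16, 12.04, 8.73 and 5.46 CPM (log2 -1.97 ± 0.40, adjusted p = 0.000881). Higher were Slc3a2 and Nupr1, a small stress-induced nuclear protein. Psat1 and Mthfd2 are counted also in the one-carbon and serine list, and Slc3a2 among the amino acid transporters. These counts are therefore not independent. Nupr1 stood at 23.02, 24.9, 68.2, 41.8 and 7.15 CPM at E4 and 288, 318, 319, 327 and 1093 CPM at D10, highest in D10 replicate 5 (log2 3.61 ± 0.56, adjusted p = 4.33e-05). The count of 8 rests in part on E4 replicate 3, without which it was 2, and it was 3 in thinned libraries. The ATF4 motif TGATGNAAT was in 0.407% of all windows, and in 1 of the 5 windows of the lower genes of this list, that of Aars (chr8:111033699-111033767, plus strand), where it lies on the other strand and is in capitals.
Aars: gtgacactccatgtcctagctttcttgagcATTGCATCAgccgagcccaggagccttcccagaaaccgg

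Defence against oxidants changed by gene and not by list. Of 35 tested genes of oxidative stress and glutathione 5 were higher and 3 lower, close to 11.9% and 9.57% of all protein-coding genes tested. Gstm5 (ENSMUSG00000004032, GRCm38 chromosome 3, 107895821 to 107898686, plus strand), a glutathione transferase of the mu class, was at 0, 4.15, 4.87, 5.98 and 0 CPM at E4 and 389, 263, 265, 204 and 439.8 CPM at D10, with 6 and 752 counts in all (log2 6.17 ± 0.43, adjusted p = 1.34e-10). The mu-class genes are close copies of each other, and how shared reads were split is not stated. Sod1 (ENSMUSG00000022982, GRCm38 chromosome 16, 90220754 to 90226329, plus strand), the cytosolic superoxide dismutase, fell from 305, 523, 343, 375 and 565 to 96.7, 167, 60.2, 82.1 and 76.5 CPM (log2 -2.11 ± 0.26, adjusted p = 2.62e-06). The mitochondrial Sod2 fell with it, from 1021 ± 205 to 441 ± 98.5 CPM (log2 -1.21 ± 0.22, adjusted p = 0.000204), beside Gsta4. Txnip, which binds thioredoxin and limits glucose uptake, rose from 4.03 ± 5.02 to 236 ± 214 CPM (log2 5.40 ± 0.91, adjusted p = 0.000117), and Nfe2l2, Prdx4 and Gstm1 rose. The 3 lower genes became 5 without E4 replicate 4 or D10 replicate 5. Hypoxia genes had 5 higher and 2 lower of 15 tested. Hif1a, the oxygen-regulated factor, rose from 51.7 ± 11.8 to 154 ± 54.1 CPM (log2 1.54 ± 0.28, adjusted p = 0.000245), and Ldha, Ero1a, Slc2a1 and Vegfa rose with it. Egln1, the hydroxylase that marks HIF for degradation, fell from 576 ± 177 to 276 ± 67.5 CPM (log2 -1.07 ± 0.25, adjusted p = 0.00258), as did the collagen hydroxylase P4ha2. The count of higher hypoxia genes was 3 to 7 with 1 sample left out, and was 3 without D10 replicate 2.

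Part of the p53 response genes rose. Of 28 tested p53 target and apoptosis genes 13 were higher and 4 lower, with a median log2 change of 0.98. Cdkn1a (ENSMUSG00000023067, GRCm38 chromosome 17, 29090976 to 29100727, plus strand), the cell cycle inhibitor p21, was at 11.5, 4.15, 4.87, 19.9 and 7.15 CPM at E4 and 157, 612, 124, 356 and 145 CPM at D10. The D10 samples differed among themselves, with replicates 2 and 4 highest, but each was above each E4 sample (log2 4.68 ± 0.58, adjusted p = 2.09e-06). Trp53 (ENSMUSG00000059552, GRCm38 chromosome 11, 69580359 to 69591873, plus strand) itself went from 0, 4.15, 7.30, 13.9 and 35.8 to 65.7, 40.8, 46.1, 47.2 and 76.5 CPM (log2 2.29 ± 0.39, adjusted p = 0.000147). Zmat3, an RNA-binding target of p53, also rose (log2 2.91 ± 0.50, adjusted p = 0.000147). Others that rose included Ccng1, Trp53inp1, Phlda3, Polk, Btg2, Ei24 and Mdm2, the death receptor Tnfrsf10b and the caspase Casp8. Lower were the survival genes Birc5 and Mcl1 and the death genes Diablo and Bok. With any 1 sample left out 12 to 14 were higher; the 4 lower genes became 2 without E4 replicate 1 or D10 replicate 4 and 0 without the E4 litters with a zona. In thinned libraries 4 genes were higher.

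A list of quiescence genes and inhibitors of cyclin-dependent kinases shares Cdkn1a, Ccng1, Trp53inp1 and Btg2 with the p53 list, so these counts are not independent. Of 18 tested genes 7 were higher and 2, Ccng2 and Klf6, lower, with a median log2 change of 0.79. Beside the shared genes, Pdcd4, Txnip and Foxo4 rose. Immediate early genes, which mark recent growth factor signalling, had 2 higher (Btg2 and Klf2) and 2 lower (Srf and Dusp1) of 14 tested. This stands beside 11.9% and 9.57% of all protein-coding genes tested. The higher count ran from 1 to 4 and moved without any of E4 replicates 2 to 5 or D10 replicates 1, 3, 4 and 5. Srf, the factor that induces many immediate early genes, went from 64.8 ± 19.3 to 22.04 ± 7.28 CPM (log2 -1.55 ± 0.33, adjusted p = 0.00118).

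**Figure D5:**
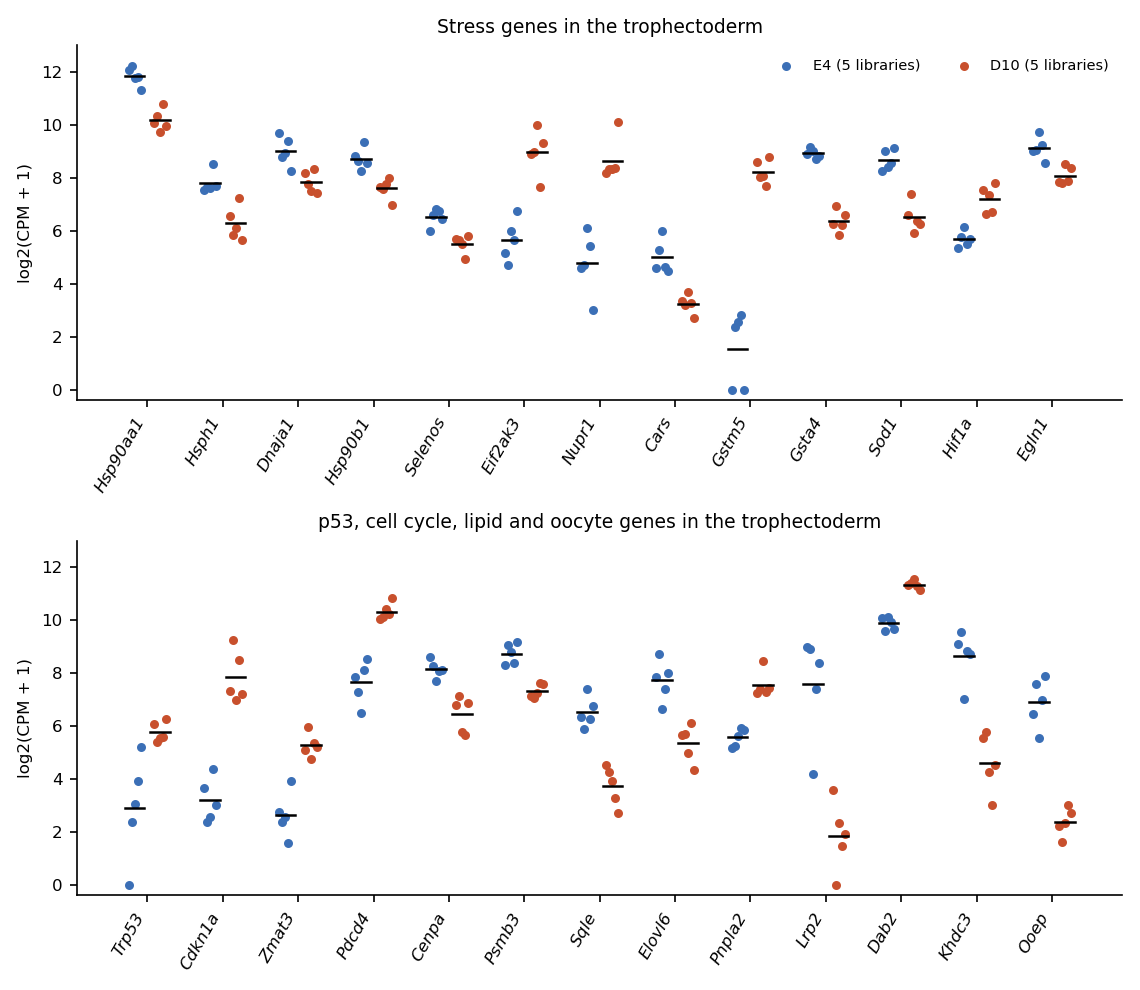
Level of stress genes (upper panel) and of p53, cell cycle, lipid and oocyte genes (lower panel) in the 5 E4 samples (blue) and the 5 D10 samples (red) as log2(CPM + 1), with group means as black lines. Hsp90aa1, Gsta4 and Sod1 are lower at D10 in every sample, and Eif2ak3, Gstm5, Nupr1 and Cdkn1a higher in every sample.

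Part of the mitosis genes fell, and most genes of DNA replication did not pass. Of 54 tested mitosis genes 19 were lower and 0 higher, with a median log2 change of -0.78. Cenpa, the histone variant of the centromere, went from 391, 303, 207, 269 and 279 to 109.5, 139, 54.2, 48.9 and 115 CPM without overlap (log2 -1.63 ± 0.27, adjusted p = 8.78e-05). Plk1, a mitotic kinase, went from 98.2 ± 61.2 to 10.8 ± 8.26 CPM (log2 -3.12 ± 0.53, adjusted p = 0.000117). The others were Aurka, Anln, Birc5, Bub1b, Ccnb2, Cdc20, Cdca2, Cdca3, Cdca8, Cenpe, Ckap2l, Cks2, Hmmr, Ndc80, Nusap1, Sgo2a and Ube2c. Without the E4 litters with a zona 10 genes of this list were lower. Of 49 tested S phase genes, Prim1, Hells and Ccne1 rose (3), Tyms and Rpa3 fell (2), and 44 did not pass. Prim1, the primase subunit, rose from 33.8 ± 12.3 to 80.7 ± 13.9 CPM (log2 1.19 ± 0.27, adjusted p = 0.00238), and without the E4 litters with a zona 0 genes of the list passed. The higher count was 5 without D10 replicate 3, and the lower count was 1 without E4 replicate 1, 2 or 3 or D10 replicate 1, 2 or 4.

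Of 42 tested chromatin genes 15 were lower and 1 (Ezh2) higher, with a median log2 change of -0.32. Hmgb2, a DNA-bending protein of dividing cells, went from 152 ± 48.2 to 41.4 ± 11.9 CPM (log2 -1.87 ± 0.25, adjusted p = 4.93e-06). Hmga2, Hmgb1, Suz12, Dnmt3a, Dnmt3l, Tet1, Kdm6b, Macroh2a1, H2ax, H2az1, H3f3b, Cbx1 and Cbx3 were among the others. The higher count was 0 or 2 without E4 replicate 2, 3 or 4 or D10 replicate 4. Without the E4 litters with a zona 9 were lower, and 7 in thinned libraries.

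Growth and translation lists gave calls in both directions, as all protein-coding genes tested did (11.9% higher and 9.57% lower). The ribosome biogenesis and cytosolic ribosomal protein lists lay close to these shares. In the list of Myc targets and polyamine synthesis 7 of 24 tested genes were higher and 4 lower. Paics, an enzyme of purine synthesis, rose from 259 ± 47.6 to 711 ± 154 CPM (log2 1.45 ± 0.19, adjusted p = 4.93e-06), and Gart of the same pathway, Impdh2, Cdk4, Ldha, Srm and Bop1 rose. Odc1, the enzyme that makes putrescine, fell from 167, 282, 55.99, 116 and 157 to 27.4, 22.4, 12.04, 29.7 and 21.9 CPM (log2 -2.71 ± 0.43, adjusted p = 5.93e-05), with Sms, Oaz1 and Fbl. The 7 higher genes became 3 to 6 with 1 sample left out, moving by over 1.5 times without E4 replicate 1 or D10 replicate 1, 2 or 4. Of 51 tested ribosome biogenesis genes 5 were higher and 5 lower (3 higher without E4 replicate 2 or 3 or D10 replicate 2, and 3 lower without E4 replicate 4 or D10 replicate 2 or 3), among them Ubtf, a factor of RNA polymerase I, with a log2 change of -2.32 ± 0.35 (adjusted p = 3.59e-05). Cytosolic ribosomal proteins had 8 higher and 6 lower of 73 tested; the higher count was 4 without E4 replicate 2, 12 without D10 replicate 4 and 3 without the E4 litters with a zona, and the lower count ran down to 2, moving by over 1.5 times without E4 replicate 3 or D10 replicate 1 or 4. Rpl32 rose (log2 1.52 ± 0.21, adjusted p = 9.49e-06), with Cand2 overlapping on the other strand. Translation factors had 9 higher and 5 lower of 42 tested, with Eif2s2, Eif5a, Eif1ax, Eif4ebp1 and Pabpc1 the lower ones. Of 30 tested mTOR and AMPK genes 3 were higher and 0 lower. Without E4 replicate 1, 3 or 4 or D10 replicate 5, 1 was lower. The higher ones were Rraga, Flcn and Fnip1. Rraga, a small GTPase that recruits mTORC1 to the lysosome, rose from 74.9 ± 34.5 to 271 ± 56.7 CPM (log2 1.77 ± 0.29, adjusted p = 7.41e-05).

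Lysosome genes rose in part, with 12 of 43 tested higher and 3 lower and a median log2 change of 0.25. Gusb, beta-glucuronidase, rose from 36.8 ± 29.7 to 168 ± 57.4 CPM (log2 2.19 ± 0.39, adjusted p = 0.000182), and Man2b1, Hexa, Grn, Lgmn, Ctsl, Npc2, Laptm4a, Laptm4b and the proton pump genes Atp6v1a and Atp6ap1 rose. Neu1 and Psap fell. Without the E4 litters with a zona 6 were higher, and the 3 lower genes became 1 without E4 replicate 4 or D10 replicate 2, 4 or 5. Of 28 tested autophagy genes 3 were higher and 1 lower, no more than 11.9% and 9.57% of all protein-coding genes tested. Gabarapl2, an ubiquitin-like protein of the autophagosome, fell from 2417, 1929, 1938, 1984 and 2096 to 564, 447, 542, 617 and 907 CPM (log2 -1.75 ± 0.29, adjusted p = 9.69e-05).

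Several calcium-binding and membrane-associated proteins rose. Of 15 tested S100 proteins and annexins 9 were higher and 0 lower, with a median log2 change of 1.5: S100a1, S100a6, S100a10, S100a13, S100a14, S100a16, Anxa1, Anxa3 and Anxa5. Anxa1, which binds membrane phospholipid, had 3 counts over the E4 samples and 426 over the D10 samples, a scaled D10 to E4 ratio of 84.2 (95% Clopper-Pearson interval 28.6 to 410). With 1 sample left out 8 to 10 genes were higher. Tetraspanins, organisers of membrane receptors, had 5 of 13 tested genes higher and 0 lower. Cd82 went from 46.03, 24.9, 21.9, 5.98 and 35.8 to 126, 57.1, 136, 171 and 180.3 CPM (log2 2.52 ± 0.38, adjusted p = 3.33e-05), and Cd81, Tspan1, Tspan9 and Tspan33 rose; 1 tetraspanin was lower without E4 replicate 2. Imprinted and Rhox genes had 5 of 15 tested higher and 0 lower. H19, an imprinted non-coding RNA of the maternal allele, was at 11.5, 4.15, 75.5, 91.6 and 78.7 CPM at E4 and 2238, 6537, 479, 1328 and 2975 CPM at D10 (log2 5.60 ± 0.68, adjusted p = 1.88e-06). The D10 samples spread widely, from replicate 3 to replicate 2, yet did not overlap with E4. Peg3 and Rhox5 rose with Rhox6 and Rhox9, and 1 gene of the list was lower with any sample but E4 replicate 3 or 4 left out.

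Further genes were at or near 0 at E4 and were counted at D10. Il1rn, the antagonist of interleukin 1 receptors, had 1 count at E4 and 571 at D10, a ratio of 338 (95% Clopper-Pearson interval 60.5 to 13393), and was at 146, 173, 325, 372 and 84.7 CPM in the D10 samples. Acox2, a peroxisomal oxidase of branched fatty acids and bile acid precursors, had 1 and 497 counts, a ratio of 295 (52.6 to 11660), and its D10 samples ran from 44.9 to 421 CPM. Ceacam1, an adhesion receptor of epithelia, had 1 and 329 counts, a ratio of 195 (34.8 to 7727). Cyp26a1, the enzyme that breaks down retinoic acid, had 3 and 236 counts, a ratio of 46.6 (15.8 to 228). For each of these genes every D10 sample was above every E4 sample. They were chosen for 3 or fewer counts at E4 and at least 100 at D10. The separation therefore follows in large part from the choice.

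Signals for implantation changed in part. Of 11 tested genes of implantation and LIF or EGF signalling 4 were higher, Lifr, Il6st, Stat3 and Itgav, and 2 lower, Erbb2 and Odc1. The lower count was 1 or 3 when any sample but D10 replicate 1 was left out. Lifr, the receptor of LIF, and Il6st, its co-receptor, were low at E4 (0.487 ± 1.09 and 5.92 ± 6.05 CPM) and at 17.1 ± 9.09 and 29.9 ± 24.8 CPM at D10 (log2 4.18 ± 0.81 and 2.27 ± 0.66, adjusted p = 0.00051 and 0.0144). In the Hippo list, whose kinases and angiomotins keep the Tead partner Yap1 out of the nucleus, 4 of 20 tested genes were higher (Amot, Amotl2, Tead1 and Yap1) and 2 lower (Tead3 and Vgll3). The higher count ran from 1 to 4 with 1 sample left out, and moved by over 1.5 times without E4 replicate 2 or 5 or D10 replicate 2, 4 or 5; the lower count ran down to 0, moving without E4 replicate 1, 3 or 4 or D10 replicate 2, 4 or 5. Amot rose from 34.5, 53.9, 7.30, 45.8 and 71.5 to 148, 145, 203, 122 and 150.2 CPM (log2 1.95 ± 0.35, adjusted p = 0.000236). Of 17 tested FGF pathway genes 2 were higher and 2 lower, close to 11.9% and 9.57% of all protein-coding genes tested. The higher count was 1 when E4 replicate 1, 2 or 5 or D10 replicate 1, 3, 4 or 5 was left out. The adaptor of FGF receptors Frs2 fell (log2 -1.35 ± 0.27, adjusted p = 0.00069). Of 13 tested Wnt genes 2 were lower, and Wnt7b, a ligand made by the trophectoderm, went from 92.1, 137, 158, 99.6 and 114 to 49.3, 69.3, 58.2, 47.2 and 35.5 CPM (log2 -1.21 ± 0.22, adjusted p = 0.000214).

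Of 5 tested genes whose transcripts are inherited from the oocyte 3 fell, and 1 was higher without any 1 of the E4 replicates or D10 replicate 5. Ooep and Khdc3 encode proteins of the maternal complex under the egg cortex. Ooep (GRCm38 chromosome 9, 78376109 to 78378725, minus strand) was at 86.3, 191, 46.3, 126 and 236 CPM at E4 and 3.65, 2.04, 4.01, 6.99 and 5.46 CPM at D10 (log2 -4.80 ± 0.45, adjusted p = 2.73e-08). Khdc3 (GRCm38 chromosome 9, 73101836 to 73104438, plus strand) was at 547, 742, 129, 450.2 and 422 CPM at E4 and 45.6, 53.01, 18.1, 6.99 and 21.9 CPM at D10 (log2 -3.95 ± 0.49, adjusted p = 2.16e-06). Dppa3, a maternal chromatin protein, went from 427 ± 279 to 7.24 ± 9.03 CPM (log2 -5.92 ± 0.77, adjusted p = 3.98e-06). Among markers of other cell types, the epiblast list had 1 higher and 3 lower of 22 tested, the 1 higher becoming 0 with any sample but D10 replicate 2 or 3 left out, and with Dppa5a falling from 2250.1 ± 915 to 594 ± 214 CPM (log2 -1.92 ± 0.35, adjusted p = 0.000303). The primitive endoderm list had 2 higher, Apoe and Lama1, and 1 lower of 20 tested, and 1 to 3 were higher with 1 sample left out, beyond 1.5 times without D10 replicate 1. The uterine list had 2 of 3 tested genes higher, Wfdc2 and Lif, and the third did not pass, with a log2 change of -3.54. Wfdc2 went from 219, 149, 122, 147 and 143 to 392, 396, 427, 458 and 552 CPM, and the stromal markers Col1a1 and Dcn had 0 counts.

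Of the 1513 tested genes called in the trophectoderm, 191 also passed the test that their change differed from the change in the ICM. Over all tested genes 346 of 6943 passed it (4.98%). Both tests use the same trophectoderm samples, so a larger share among called genes can follow from that. Ppp1cc fell in the trophectoderm, whereas its ICM change was 0.27 ± 0.34, a difference of -6.26 ± 0.58 (adjusted p = 6.14e-08). Lrp2 fell in the trophectoderm and had an ICM change of 1.27 ± 0.58 (difference -7.33 ± 1.05, adjusted p = 6.5e-05). Gsta4 and Cbs had ICM changes of -0.12 ± 0.21 and -0.17 ± 0.32 (differences -2.41 ± 0.30 and -2.35 ± 0.44, adjusted p = 7.92e-06 and 0.00167). Ceacam1 and Slc1a5 were higher in the trophectoderm relative to the ICM change (differences 6.49 ± 1.01 and 4.98 ± 0.80, adjusted p = 0.000187 and 0.000286), and so was Trp53 (difference 2.23 ± 0.48, adjusted p = 0.00611). Gjb2, S100a1 and Cdkn1a did not pass it (adjusted p = 0.336, 0.672 and 0.503), and their ICM changes were 6.31 ± 0.93, 8.68 ± 0.53 and 6.16 ± 0.69 on the log2 scale. With DESeq2, Gjb2 passed the test of the difference (5.44, adjusted p = 0.0133), and S100a1 and Cdkn1a did not.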

How the data were processed

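BRB-seq, a pooled 3′ RNA-seq method with barcoded primers, gave raw counts per gene for 20 samples; the authors deposited these counts as 1 table. Per the submitters' processing notes, the tools included HISAT2 2.2.1, featureCounts 2.0.1, Trim Galore 0.6.7 and UMI-tools; GRCm38 is listed beside GRCh38, without roles. Whether counts were collapsed by molecular identifier and whether strand was used is not given in the sources used here. Reads that are not collapsed are not independent molecules, so intervals and limits cover counting error only.

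Samples were grouped by their labels. Genes were filtered with edgeR's filterByExpr (minimum count 10), scaled with TMM factors, and tested with edgeR 4.0.16's quasi-likelihood test (R 4.3.3) in 1 fit of all 4 groups of 5, with Benjamini-Hochberg adjustment over 6943 genes and a threshold of 0.05. Log2 changes are given with a standard error, and levels as CPM with the SD over 5 samples where ± follows CPM. The difference between tissues was tested as an interaction in the same fit, without a litter block. Totals ran from 144276 to 579016 counts in the trophectoderm. The script was tested on simulated data. There, 35% of genes changed 2-fold and 98% of genes changed 4-fold were called in the right direction. Genes of low level were not changed there. A gene that did not pass can therefore still have changed.

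Of 1632 distinct symbols in the gene lists, 1537 were in the table, 13 were found under a RefSeq synonym and 82 were not found. Genes given with full values were 12 lineage genes, per direction the 12 with the smallest adjusted p among protein-coding genes at or above the median level, the first members of each list by adjusted p, and genes with 3 or fewer counts in 1 group and at least 100 in the other. Other list members with values (Aqp9, Atf4, Cpt1a, Dppa3, Hmgcs1, Hsd17b7, Il6st, Insig1, Lifr, Mvd, Plk1, Psmb2, Psmd12, Scnn1b, Slc4a2, Sod2, Srebf2 and Txnip) were chosen after their values were seen. The members and lists were chosen with earlier results of these data known. Gene positions are those of GRCm38. Some genes of the lists are counted but not reported here by name.

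Same-numbered samples of the 2 times came from different litters, and their deviations correlated at -0.033 to 0.052. The ICM and TE of 1 litter shared a number (mean r 0.177 at E4 and 0.168 at D10). The main test of the difference between tissues ignored this pairing, and a litter block was used for it as an alternative. Alternatives were other scaling factors, DESeq2 1.42.0, limma 3.58.1 voom, other filters, thinned libraries, TE samples alone, a replicate block, and leaving out the E4 litters with a zona or each sample in turn.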

Additional observations from a re-analysis of the deposited data

Results flagged for a closer look

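Of 234 pairs of a named gene and a trophectoderm group, 22 held a sample far from the other 4, as did 3 summed marker levels. The cut-off flags about 1 in 20 by chance only where values are normally distributed, which counts near 0 are not. With 4 samples at 0 and 1 sample with a single count, the flag is certain. This was so for Sox2, Acox2, Ceacam1 and Il1rn at E4. At E4, replicate 3 was the outlying sample for 7 genes. It was the highest for Elf5 at 251 CPM (53.9 to 109.6 in the other samples), Rnf144b at 34.1 CPM (11.5 to 14.3 in the other samples), Basp1 at 3045 CPM (469 to 1165 in the other samples), Parva at 58.4 CPM (7.15 to 17.9 in the other samples), Slc3a2 at 815 CPM (369 to 495 in the other samples) and Acox2 at 2.43 CPM (0 in the other samples). It was the lowest for Dsp, at 68.2 CPM (141 to 165 in the other samples). Replicate 1 was highest for Sox2 at 5.75 CPM (0 in the other samples), Wfdc2 at 219 CPM (122 to 149 in the other samples) and the summed blood and immune markers at 92.1 CPM (0 to 12.2 in the other samples). The remaining E4 values were Gata4 in replicate 5 at 28.6 CPM (0 to 2.43 in the other samples), Scnn1a in replicate 5 at 21.5 CPM (0 to 4.15 in the other samples), Hsph1 in replicate 4 at 365 CPM (184 to 207 in the other samples), Il1rn in replicate 5 at 7.15 CPM (0 in the other samples) and Ceacam1 in replicate 4 at 1.99 CPM (0 in the other samples). At D10, replicate 2 was highest for Plac1 at 51.0 CPM (15.7 to 24.6 in the other samples), Gusb at 267 CPM (119 to 156 in the other samples) and Paics at 979 CPM (584 to 682 in the other samples). Other high D10 samples were Pkp2 in replicate 4 at 183 CPM (104 to 126 in the other samples), Slc2a1 in replicate 1 at 164 CPM (89.7 to 108 in the other samples), Pnpla2 in replicate 3 at 351 CPM (151 to 172 in the other samples), Nupr1 in replicate 5 at 1093 CPM (288 to 327 in the other samples), Ceacam1 in replicate 1 at 257 CPM (76.9 to 118 in the other samples), the summed epiblast markers in replicate 4 at 1595 CPM (1013 to 1097 in the other samples) and the summed blood and immune markers in replicate 4 at 71.6 CPM (12.04 to 24.5 in the other samples).

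Over all tested genes, 346 of 6943 passed the test of the difference between tissues (4.98%). Named genes were chosen largely by their trophectoderm change, and this test shares those samples. A larger share among them can follow from the choice. For 23 named genes the D10 minus E4 change in the trophectoderm differed from that in the inner cell mass in the test of the difference itself (edgeR, adjusted p under 0.05). In 15 of them the trophectoderm change lay below the inner cell mass change, by the following log2 differences: Lrp2 (-7.33), Ppp1cc (-6.26), Ooep (-3.94), Nectin3 (-3.85), Serf2 (-3.78), Sqle (-3.60), Egfl7 (-3.15), Gsta4 (-2.41), Hs3st3b1 (-2.39), Cbs (-2.35), Basp1 (-2.12), P4ha2 (-2.03), Wnt7b (-1.505), Gjb5 (-1.46) and Frs2 (-1.39). In the other 8 it lay above: Ceacam1 (6.49), Slc1a5 (4.98), Slc7a3 (2.42), Trp53 (2.23), Fbxo21 (1.99), Rpl32 (1.68), Fuca1 (1.47) and Shmt1 (1.32). Fuca1 had an adjusted p of 0.0496 and did not pass with a litter block (edgeR, adjusted p = 0.0678) or with RLE factors (adjusted p = 0.0544). Egfl7, whose change in the trophectoderm did not pass, is overlapped at its 3′ end by Agpat2 on the other strand.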

How the results depend on the processing

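The main fit called 793 protein-coding genes higher and 639 lower. In libraries thinned to 1 total, where 3852 genes were tested, 402 and 347 were called. Of the main calls, 364 higher and 315 lower genes were called again there. With 1 sample left out the counts ran from 644 to 738 higher and from 552 to 613 lower, and without the E4 litters with a zona they were 557 and 504. Library totals alone gave 694 and 695. A replicate block on the number gave 653 and 545, although the numbers mark different litters at the 2 times; it is given for completeness. With a litter block the difference between tissues was called above in 185 genes and below in 311, against 127 and 219 without it. Under the 21 alternatives 0 called genes took the opposite call. Of 109 named genes past the threshold, 99 passed in every alternative that tested them and 10 missed it in at least 1. Of the 99, 21 were not tested in at least 1 alternative, and Krt19 was tested in 13 of 21. Those that missed it included Abcc4, Bsg, Epcam, Krt7, Prim1, Selenos, Slc29a1, Slc2a1 and Tfap2c. Sign changed only for genes that did not pass: Krt8 was at -0.0015 without E4 replicate 1, -0.0541 without E4 replicate 3, -0.0139 without D10 replicate 1 and -0.107 without D10 replicate 4, with a highest value of 0.257. Sox17 was at -0.407 and Gata4 at -0.292 in thinned libraries, and Gata4 at -0.427 without D10 replicate 1 and up to 2.88 without another sample. Thinning leaves fewer counts per gene; for the other settings the cause was not tested. At E4, 3 counts correspond to up to 21.5 CPM, which limits what could be detected in low genes there.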
